A study of Mus musculus with 10 samples.

Results

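The 35 genes described here handle fat in a cell: they take up fatty acids and lipoproteins, build triglyceride, coat lipid droplets and break stored triglyceride down. They were chosen by name from the 53379 genes of the count table, and all 35 were found in it. This choice, like that of the other gene lists below, was made with earlier results of these data known. By role, 11 belong to uptake, 13 to glycerolipid assembly, 5 to droplet proteins and 6 to lipases and their regulators. RNA was sequenced from MC38 tumor cells, a mouse colon carcinoma line, recovered from C57BL/6J mice 21 days after implantation. The tumors came from 5 mice on a high-fat diet and 5 mice on a control diet, with 1 library per mouse. In both groups the cells carried the red fluorescent protein dTomato and were sorted as positive for it and negative for CD45, the common leukocyte surface protein. MC38 is a single line, and the sources used here do not give the makeup of the diets, the time on them, the sex and age of the mice or the site of implantation. The question is what the diet of the host changes in the tumor cells.

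Fatty acids enter cells with the help of CD36 and the fatty acid transport proteins, or arrive in lipoproteins that are taken in whole or stripped of fat at the cell surface by lipoprotein lipase. Inside the cell they are carried by fatty acid binding proteins and joined step by step to glycerol: GPAT enzymes add the first acyl chain, AGPAT enzymes the next, lipins remove the phosphate, and DGAT enzymes add the last chain to give triglyceride. Triglyceride is kept in droplets coated by perilipins and is released by adipose triglyceride lipase, hormone-sensitive lipase and monoglyceride lipase in turn. In tumors, droplets are a known store of fuel and membrane lipid and are often more abundant when oxygen is low.

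Of the 9 members with an unadjusted p under 0.05 in the comparison of diets, 4 had a promoter window in RefSeq with no annotated exon in it, and these sequences are given because they stand before genes at either side of the comparison: Vldlr and Pnpla2 were lower on the high-fat diet at an unadjusted p under 0.05, and Lpin1 and Agpat4 were higher. Each is the 250 bases before a RefSeq transcript start in GRCm38.p6, 5′ to 3′ on the gene's strand. The Agpat4 window lies inside the gene's annotated span, in an intron, and the other windows lie upstream of their genes. Capitals mark GCGTG, a core recognised by hypoxia-inducible factors, AGGTCA, a nuclear receptor half-site, and CCAAT, a box bound by NF-Y, read on either strand.
Vldlr, chr19:27216234-27216483, plus strand: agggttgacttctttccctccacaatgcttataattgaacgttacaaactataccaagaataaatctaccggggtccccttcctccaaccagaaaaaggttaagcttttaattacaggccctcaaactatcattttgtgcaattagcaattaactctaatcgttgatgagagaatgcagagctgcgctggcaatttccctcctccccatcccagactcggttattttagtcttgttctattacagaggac
Pnpla2, chr7:141454938-141455187, plus strand: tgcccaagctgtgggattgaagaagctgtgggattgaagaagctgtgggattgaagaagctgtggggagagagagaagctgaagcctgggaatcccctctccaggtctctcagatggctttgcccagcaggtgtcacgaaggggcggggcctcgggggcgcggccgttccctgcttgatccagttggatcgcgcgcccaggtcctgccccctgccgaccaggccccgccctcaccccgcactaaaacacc
Lpin1, chr12:16610967-16611216, minus strand: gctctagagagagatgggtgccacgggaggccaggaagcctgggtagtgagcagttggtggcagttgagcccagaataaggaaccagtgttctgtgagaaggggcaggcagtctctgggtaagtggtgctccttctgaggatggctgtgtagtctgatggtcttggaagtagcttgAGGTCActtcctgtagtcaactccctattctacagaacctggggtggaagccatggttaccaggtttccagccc
Agpat4, chr17:12119034-12119283, plus strand: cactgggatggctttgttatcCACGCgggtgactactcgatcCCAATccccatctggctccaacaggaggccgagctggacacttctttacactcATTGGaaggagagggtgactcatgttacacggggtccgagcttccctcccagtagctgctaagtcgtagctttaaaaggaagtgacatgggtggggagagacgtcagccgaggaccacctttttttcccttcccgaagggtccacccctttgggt
The windows printed for Vldlr and Pnpla2 held none of the marked motifs. A second Vldlr window in RefSeq, chr19:27216770-27217019, overlaps an exon of the gene and is not printed, and it held CCAAT 78 bases before its start. Lpin1 held AGGTCA beginning 74 bases before its start, and Agpat4 held GCGTG (as CACGC) at 229 bases and CCAAT at 208 and 155 bases.

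RefSeq held 40 such windows for 27 of the 35 genes. GCGTG was in 18 of the 40 windows and in 28.2% of all 32851 windows of this length, and ACGTG, another hypoxia core, was in 10 of 40 and in 16.6% of all. AGGTCA was in 7 of 40 and in 14.0% of all, and CCAAT was in 13 of 40 and in 33.8% of all. CACGTG, an E-box that contains ACGTG on both strands, was in 4 of 40 and in 6.02% of all. A match describes letters only, and the lack of one says only that these letters are not in this window.

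Libraries from high-fat mice held 16513388 to 17154050 counts and those from control mice 17050797 to 18653705, so the high-fat libraries were mostly the smaller ones. Markers of colon epithelium were low: 8 genes had 428 counts over all 10 libraries, 271 of them from Cdh1 and 16 from Epcam. Cdh1, the only one of the 8 tested, was at 0.933 to 1.89 CPM in high-fat mice and 1.08 to 2.27 CPM in control mice. The fibroblast list of 6 genes, which includes Dcn and Pdgfra, summed to 993 to 1880 CPM in high-fat mice and 1280 to 1770 in control mice. CPM are counts scaled to a common library size, with TMM factors between libraries. Of 12 macrophage markers 11 were lower on the high-fat diet at an unadjusted p under 0.05 in edgeR, against 6.62% of all tested genes. The other, Mertk, was higher at an unadjusted p under 0.05, against 5.45% of all genes, and 0 of the 12 passed the adjusted threshold. Without Mertk their summed level was 30.2 to 64.3 CPM in high-fat mice and 60.7 to 408 CPM in control mice. Control mice 3 and 4 stood apart with 361 and 408 CPM, so results are also given without those libraries. The macrophage marker level used below as a covariate is the mean log2 CPM of all 12, Mertk included. A list of 6 pan-leukocyte genes, which includes the CD45 gene Ptprc, summed to 7.98 to 37.0 CPM in high-fat mice and 11.6 to 132 CPM in control mice. In bulk RNA, fewer cells of a type and less RNA per cell cannot be told apart.

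Enough reads to test were found for 27 of the 35 genes, and none of them passed an adjusted p of 0.05 in edgeR, a threshold that 0.0628% of all 14337 tested genes passed. At an unadjusted p under 0.05 in edgeR there were 9 members, 33.3% of those tested, against 12.1% of all genes. Of these, 7 were lower on the high-fat diet (25.9%, against 6.62% of all genes): Vldlr, Dgat2, Fabp4, Pnpla2, Gpat3, Angptl4 and Fabp5. Higher were Lpin1 and Agpat4, 2 genes or 7.41%, against 5.45% of all genes. The other 18 had log2 changes between -0.34 and 0.21, 8 negative and 10 positive, and edgeR adjusted p-values of 0.458 to 0.952. Over the 27, the median log2 change was -0.04, against 0.00572 over all tested genes.

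The count of members passing depended on the test. DESeq2 passed 3 members, all lower on the high-fat diet (11.1%, against 1.52% of all genes in that direction): Vldlr, Dgat2 and Fabp4. limma-voom passed 0 members and 0.0349% of all genes. With no low-count filter edgeR tested 34 members and passed 1, Vldlr, as lower (2.94%, against 0.103% of the 29047 genes then tested). With the macrophage marker level as a covariate in edgeR, Vldlr and Dgat2 passed, 2 lower members or 7.41%, against 0.551% of all genes lower. Without control mice 3 and 4, edgeR passed 4 lower members, 14.8% against 1.07% of all genes lower: Vldlr, Dgat2, Gpat3 and Plin2. Control mice 3 and 4 had the lowest values of all controls for each of these 4 genes. Leaving them out thus enlarges each change by itself, and the added calls are no separate support. The same mice had the highest macrophage marker sums, so the calls with that covariate are no separate support either. Gpat3 and Plin2 passed in no other alternative. With log2 library size as a covariate, 0 members and 0 of all 14337 genes passed in edgeR. In that fit 5 members had an unadjusted p under 0.05, which is 18.5% against 5.7% of all genes. They were Dgat2, Fabp4, Gpat3, Pnpla2 and Vldlr, with log2 changes there of -1.01, -1.5, -0.69, -0.33 and -0.61.

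**Figure D1:**
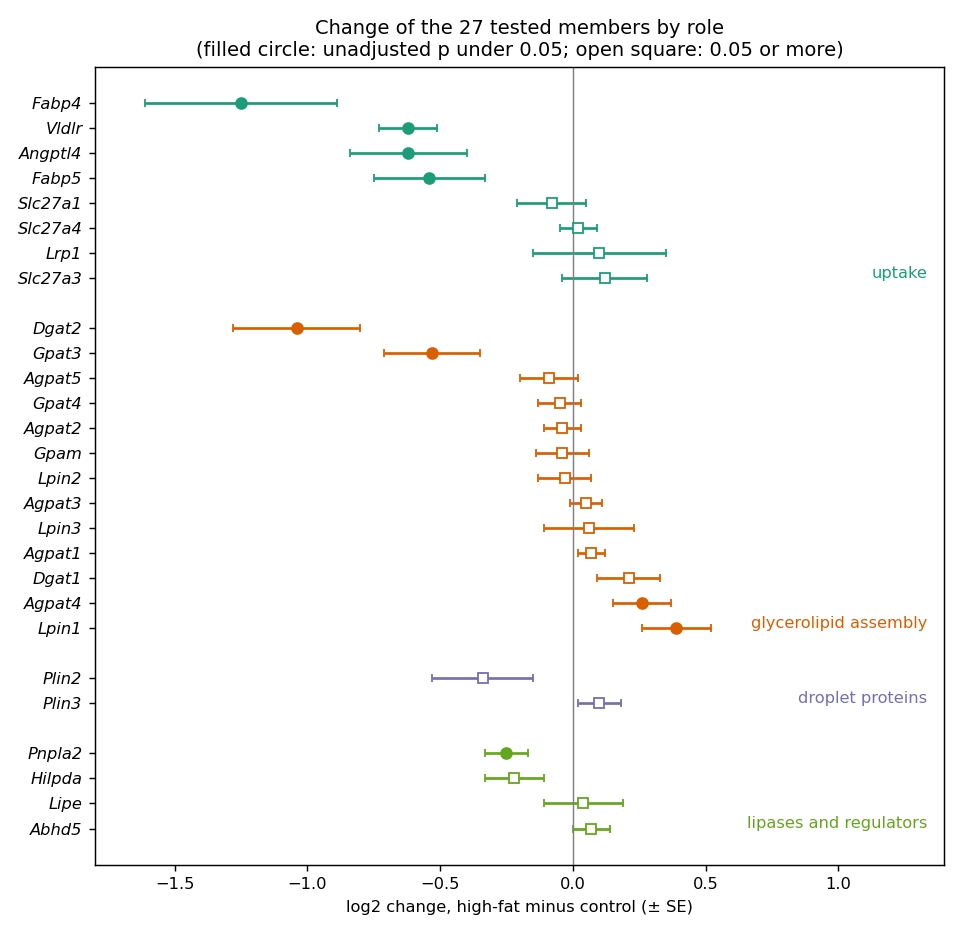
Log2 change (high-fat minus control, x axis) with its SE for the 27 tested members, grouped by role and sorted within it. Filled circles mark an unadjusted p under 0.05. Of the 8 uptake genes 4 lie well left of 0, at -1.25 to -0.54, while most assembly genes lie near 0 and Lpin1 reaches 0.39.

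In the uptake group, the transcripts of a lipoprotein receptor, 2 fatty acid binding proteins and an inhibitor of lipoprotein lipase were lower on the high-fat diet, and those of the transport proteins lay near their control levels. Of 11 members 8 were tested, 5 with a negative change and 3 with a positive one, with a median log2 change of -0.31. At an unadjusted p under 0.05 there were 4 lower and 0 higher, and 0 passed the adjusted threshold in edgeR. The summed level per kilobase of exon was 92.5 ± 3.16 in high-fat mice and 113 ± 9.34 in control mice (SD, n = 5 each).

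Vldlr (chr19:27216484-27254231, plus strand), the receptor that takes up triglyceride-rich lipoproteins, was at 92.4, 78.3, 72.1, 88.0 and 94.6 CPM in high-fat mice 1 to 5, against 137, 147, 106, 110 and 152 CPM in control mice 1 to 5. Every high-fat mouse was below every control mouse. Vldlr was the only tested member whose groups did not overlap, and 1.1% of all tested genes had the high-fat mice wholly below. Its mean was 85.1 ± 9.57 CPM on the high-fat diet and 130 ± 21.1 CPM on the control diet (SD, n = 5 each), a ratio of 0.653. This is a log2 change of -0.62 ± 0.11 (SE), with an adjusted p of 0.102 in edgeR. Its log2 change was -0.77 without control mice 3 and 4 and -0.91 once the macrophage marker level was a covariate, and the edgeR adjusted p-values were 0.0045 and 0.00362. Over 19 alternative settings the adjusted p of Vldlr ran from 0.0004, in DESeq2, to 0.819, with library size as a covariate. In the library size fit, where no tested gene passed, its log2 change was -0.61.

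Fabp4 (chr3:10204088-10208576, minus strand) encodes the fatty acid binding protein of adipocytes, macrophages and endothelium. It was at 9.11, 4.12, 2.99, 4.26 and 3.21 CPM in high-fat mice 1 to 5, against 10.3, 7.16, 7.4, 11.5 and 20.3 CPM in control mice 1 to 5. High-fat mice 2 to 5 were below all controls, while high-fat mouse 1 was above control mice 2 and 3. Fabp4 had the largest size of change among the tested members, -1.25 ± 0.36 (log2, SE), at an adjusted p of 0.21 in edgeR and 0.0177 in DESeq2. Its range over the alternatives was 0.0177 to 0.819. It also varied most between mice of a group, with a coefficient of variation of 52.9% in high-fat mice and 47.2% in control mice. Adipocyte markers were near 0 in every library: 8 genes had 74 counts in all, none passed the filter, Retn was at 0, and their sum was 0.0591 to 0.611 CPM in high-fat mice and 0.117 to 0.849 CPM in control mice. Endothelial markers, 8 genes, summed to 26.3 to 36.9 CPM in high-fat mice and 21.8 to 30.4 CPM in control mice. Most of that sum was Pecam1, with a log2 change of 0.08. Cdh5 had one of 0.95 (edgeR adjusted p of 0.337) and Egfl7 one of -0.17. Below the filter, Kdr, Tek, Tie1, Emcn and Cldn5 each had more counts in the high-fat libraries, such as 38 against 6 for Tek. Most macrophage markers were also lower on the high-fat diet, as given above. Control mouse 5, with the most Fabp4 at 20.3 CPM, had a macrophage sum without Mertk of 72.8 CPM. The highest sum, 408 CPM, was in control mouse 4, where Fabp4 was at 11.5 CPM. With the macrophage marker level as a covariate the log2 change of Fabp4 was -1.70 at an edgeR adjusted p of 0.135. Without control mice 3 and 4 it was -1.41 at 0.0997. The part of adipocytes, endothelium or macrophages in the Fabp4 values was not tested.

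Fabp5 (chr3:10012548-10016607, plus strand), the epidermal form that many tumor cells express, was at 65.8, 43.7, 31.2, 48.0 and 49.7 CPM in high-fat mice 1 to 5, against 54.5, 52.9, 61, 78.1 and 101 CPM in control mice 1 to 5. High-fat mice 2 to 5 were below all controls, and high-fat mouse 1 was above control mice 1, 2 and 3. Its log2 change of -0.54 ± 0.21 (SE) had an edgeR adjusted p of 0.337. Fabp5 made up 92.7% ± 1.79 of the per-kilobase level of the 3 fatty acid binding proteins in high-fat mice and 88.6% ± 2.29 in control mice (SD, n = 5 each), so Fabp4 was the minor form in both.

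Angptl4 (chr17:33773750-33781830, minus strand), a secreted inhibitor of lipoprotein lipase, had the highest level per kilobase of the uptake group averaged over both diets. On the high-fat diet alone Slc27a1 was above it, at 17.8 against 17.1 per kilobase, while on the control diet Slc27a1 was at 18.8 and Angptl4 at 26.3. It was at 57.1, 63.3, 42.6, 51.5 and 87.6 CPM in high-fat mice 1 to 5, against 96.1, 137, 82.2, 65.7 and 84.9 CPM in control mice 1 to 5. High-fat mice 1 to 4 were below all controls, and high-fat mouse 5 was above control mice 3, 4 and 5. The log2 change was -0.62 ± 0.22 (SE) at an edgeR adjusted p of 0.276, and -0.81 without control mice 3 and 4. Angptl4, Hilpda and Plin2 are textbook hypoxia targets, and 8 other hypoxia response genes were read beside them. Of these, 7 had a negative change, 4 at an unadjusted p under 0.05 (against 6.62% of all genes lower), and 0 passed in edgeR. Egln3 had a positive log2 change, 0.27, and those of Ndrg1 and Vegfa were -0.17 and -0.07. DESeq2 passed Ero1a and Car9, at adjusted p-values of 0.000174 and 0.000857, and every high-fat mouse was below every control mouse for both. Of all genes, 1.52% passed as lower in DESeq2 and 1.1% had the high-fat mice wholly below. Ero1a and Car9 also passed in edgeR without control mice 3 and 4 (0.0045 and 0.0362) and with the macrophage covariate (0.00834 and 0.0442). Over all alternatives their adjusted p ran from 0.000174 to 0.813 for Ero1a and from 0.000857 to 0.819 for Car9. Control mice 3 and 4 had the lowest Ero1a of the controls and the most macrophage markers. Neither of those 2 edgeR fits is thus separate support for Ero1a. All 8 hypoxia genes summed to 1080 to 1370 CPM in high-fat mice and 1240 to 1870 CPM in control mice. Control mice 3 and 4 were the lowest controls at 1240 and 1370. The part of the hypoxia response in the members' values was not tested.

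The fatty acid transport proteins, which couple uptake to activation with coenzyme A, were abundant and close between diets. Slc27a1 ranged from 85.3 to 144 CPM in high-fat mice and from 102 to 127 CPM in control mice. Slc27a4 averaged 58.7 ± 3.17 CPM in high-fat mice and 57.8 ± 3.77 CPM in control mice, and Slc27a3 averaged 16 ± 2.75 CPM in high-fat mice and 14.7 ± 3.14 CPM in control mice (SD, n = 5 each). Their log2 changes were -0.08, 0.02 and 0.12. Lrp1, a large receptor for remnant lipoproteins, had the highest CPM of all members and a wide spread, 172 to 399 CPM in high-fat mice and 181 to 368 CPM in control mice. Its log2 change was 0.10 ± 0.25 (SE), and it turned to -0.21 with library size as a covariate.

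Below the filter in the uptake group were Cd36, the scavenger receptor for fatty acids, with 22 counts over all high-fat libraries and 45 over all control libraries, Lpl, lipoprotein lipase itself, with 11 on the high-fat and 32 on the control diet, and Fabp3, the heart form, with 2 on the high-fat and 4 on the control diet. A count of 3 is worth 0.158 to 0.183 CPM in these libraries, and no value of the 8 members below the filter exceeded 1.22 CPM in any mouse. These libraries thus held Vldlr, Lrp1 and Angptl4 transcripts at a far higher CPM than those of Cd36 and Lpl, which were near the limit of detection.

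**Figure D2:**
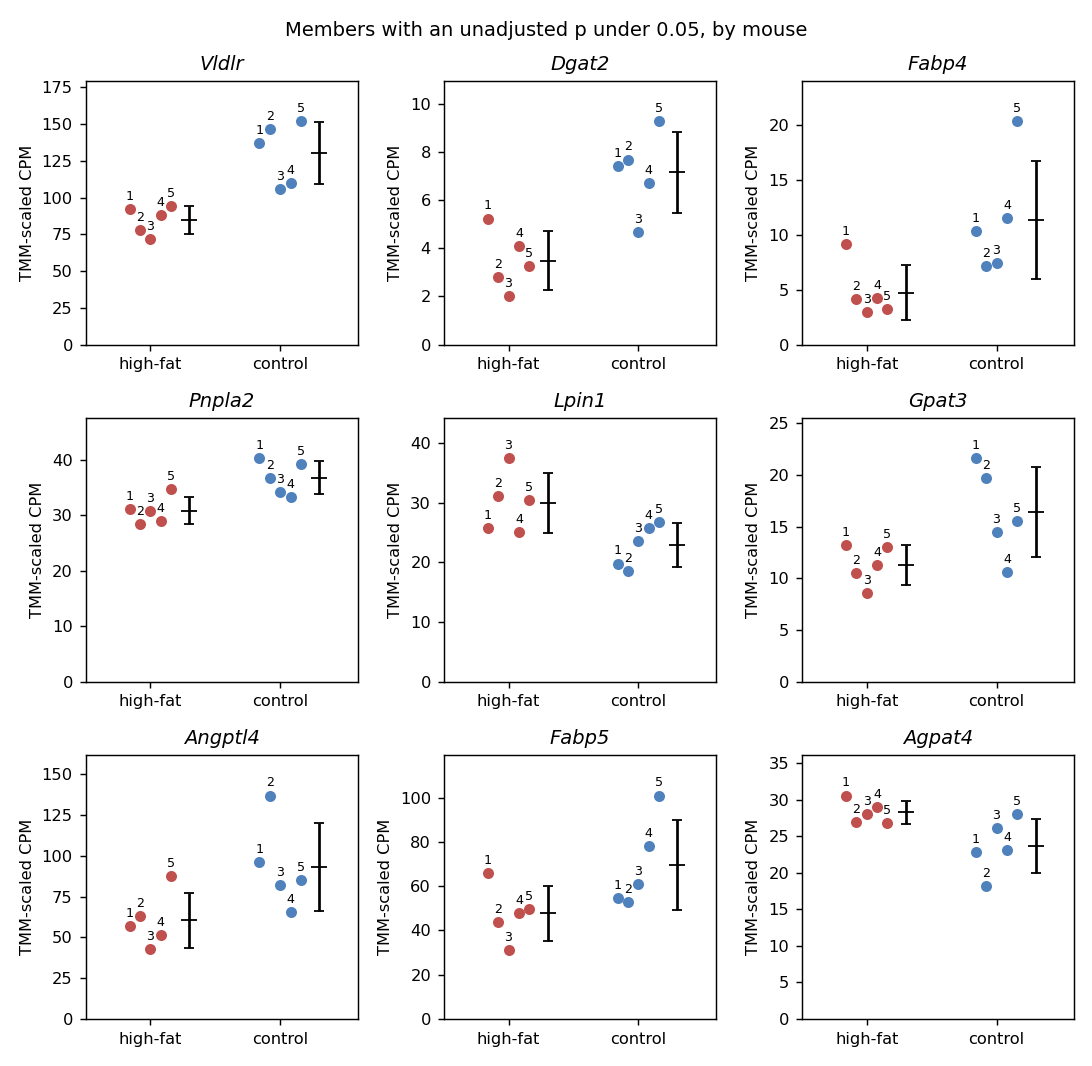
TMM-scaled CPM (y axis, from 0) of the 9 members with an unadjusted p under 0.05, in each of 5 high-fat and 5 control mice, numbered as labelled, with mean ± SD beside the points. Only Vldlr shows no overlap, with high-fat mice at 72.1 to 94.6 CPM and control mice at 106 to 152 CPM; in Lpin1 and Agpat4 the high-fat points lie higher and still overlap the controls.

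Glycerolipid assembly was expressed throughout, with all 13 members tested. The terminal enzyme Dgat2 and the first-step enzyme Gpat3 were lower on the high-fat diet, Lpin1 and Agpat4 were higher, and the most abundant enzymes of each family stood close to their control levels. Changes were negative for 7 and positive for 6, with a median log2 change of -0.03. At an unadjusted p under 0.05 there were 2 lower and 2 higher, and 0 passed the adjusted threshold in edgeR. The summed level per kilobase was 152 ± 3.44 in high-fat mice and 150 ± 2.97 in control mice (SD, n = 5 each).

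Dgat2 (chr7:99153658-99182719, minus strand), which with DGAT1 adds the last acyl chain of triglyceride, was at 5.24, 2.81, 2.02, 4.08 and 3.27 CPM in high-fat mice 1 to 5, against 7.42, 7.69, 4.66, 6.71 and 9.28 CPM in control mice 1 to 5. High-fat mice 2 to 5 were below all controls, and high-fat mouse 1 was above control mouse 3 alone. The mean was 3.48 ± 1.24 CPM in high-fat mice and 7.15 ± 1.68 CPM in control mice (SD, n = 5 each), and the log2 change was -1.04 ± 0.24 (SE) at an edgeR adjusted p of 0.157. It passed in DESeq2 (adjusted p of 0.00695), without control mice 3 and 4 (edgeR, 0.0296, log2 change -1.22) and with the macrophage covariate (edgeR, 0.0363, log2 change -1.47), out of a range of 0.00695 to 0.819 over the alternatives. Dgat1, the other enzyme of this step, was at 29.7 ± 4.89 CPM in high-fat mice and 25.7 ± 3.17 CPM in control mice (SD, n = 5 each), a log2 change of 0.21 ± 0.12 (SE) at an edgeR adjusted p of 0.536. Dgat2 therefore held 10.8% ± 4.52 of the per-kilobase level of both enzymes in high-fat mice and 21.7% ± 5.35 in control mice (SD, n = 5 each). By mouse its share was 16.6%, 7.92%, 5.11%, 13.5% and 10.6% in high-fat mice 1 to 5 and 25.8%, 23.5%, 14.0%, 18.6% and 26.8% in control mice 1 to 5. High-fat mouse 1 exceeded control mouse 3, and the other high-fat mice were below all controls.

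Gpat3 (chr5:100845713-100899102, plus strand), an enzyme of the first step in the endoplasmic reticulum, was at 13.2, 10.5, 8.55, 11.3 and 13.0 CPM in high-fat mice 1 to 5, against 21.6, 19.7, 14.5, 10.6 and 15.5 CPM in control mice 1 to 5. All high-fat mice were below control mice 1, 2, 3 and 5, and only control mouse 4 lay among them. For Gpat3 the log2 change was -0.53 ± 0.18 (SE) at an edgeR adjusted p of 0.266, and without control mice 3 and 4 it was -0.74 at 0.037, the lowest of its alternatives, which ran to 0.819. The opposite-strand gene 4930458D05Rik overlaps 30.0% of the exon length of Gpat3, and without a stated strand setting their reads cannot be told apart. Gpat4, the most abundant GPAT, held 77.1% ± 1.22 of the family's per-kilobase level in high-fat mice and 73.9% ± 3.44 in control mice (SD, n = 5 each). Gpam, the mitochondrial GPAT, averaged 23.8 ± 2.09 CPM in high-fat mice and 24.4 ± 3.28 CPM in control mice (SD, n = 5 each).

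Lpin1 (chr12:16535669-16610966, minus strand), a phosphatidate phosphatase that also acts as a transcriptional coactivator, was at 25.8, 31.1, 37.4, 25 and 30.4 CPM in high-fat mice 1 to 5, against 19.8, 18.5, 23.6, 25.7 and 26.8 CPM in control mice 1 to 5. High-fat mice 2, 3 and 5 were above all controls, and high-fat mice 1 and 4 lay among the upper controls. The log2 change was 0.39 ± 0.13 (SE) at an edgeR adjusted p of 0.262, and 0.46 without control mice 3 and 4. Lpin1 made up 34.0% ± 4.74 of the lipin level per kilobase in high-fat mice and 28.4% ± 2.99 in control mice (SD, n = 5 each). Lpin2 averaged 38.5 ± 4.91 CPM in high-fat mice and 39.3 ± 3.79 CPM in control mice, and Lpin3 averaged 10.6 ± 2.30 CPM in high-fat mice and 10.1 ± 1.98 CPM in control mice (SD, n = 5 each).

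Agpat4 (chr17:12118704-12219645, plus strand), a lysophosphatidate acyltransferase family member, was at 30.6, 27, 28.0, 29.0 and 26.8 CPM in high-fat mice 1 to 5, against 22.8, 18.2, 26.2, 23.2 and 28.0 CPM in control mice 1 to 5. All high-fat mice were above control mice 1 to 4, and control mouse 5 lay among them. That gave a log2 change of 0.26 ± 0.11 (SE) at an edgeR adjusted p of 0.349. Agpat1, a main enzyme of the step, had the highest level per kilobase in the assembly group, 40.5 in high-fat mice and 38.5 in control mice. It was at 124, 118, 125, 123 and 117 CPM in high-fat mice 1 to 5, against 116, 117, 113, 116 and 115 CPM in control mice 1 to 5. High-fat mice 1 to 4 were above all controls, yet the log2 change was only 0.07 ± 0.05 (SE) at an edgeR adjusted p of 0.649. Agpat1 was also the steadiest member between mice, with a coefficient of variation of 2.94% in high-fat mice and 1.37% in control mice. Agpat2, whose loss causes lipodystrophy in people, averaged 30.9 ± 1.42 CPM in high-fat mice and 31.8 ± 1.67 CPM in control mice (SD, n = 5 each). Agpat3 had a log2 change of 0.05 and Agpat5 of -0.09, each smaller than its SE.

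**Figure D3:**
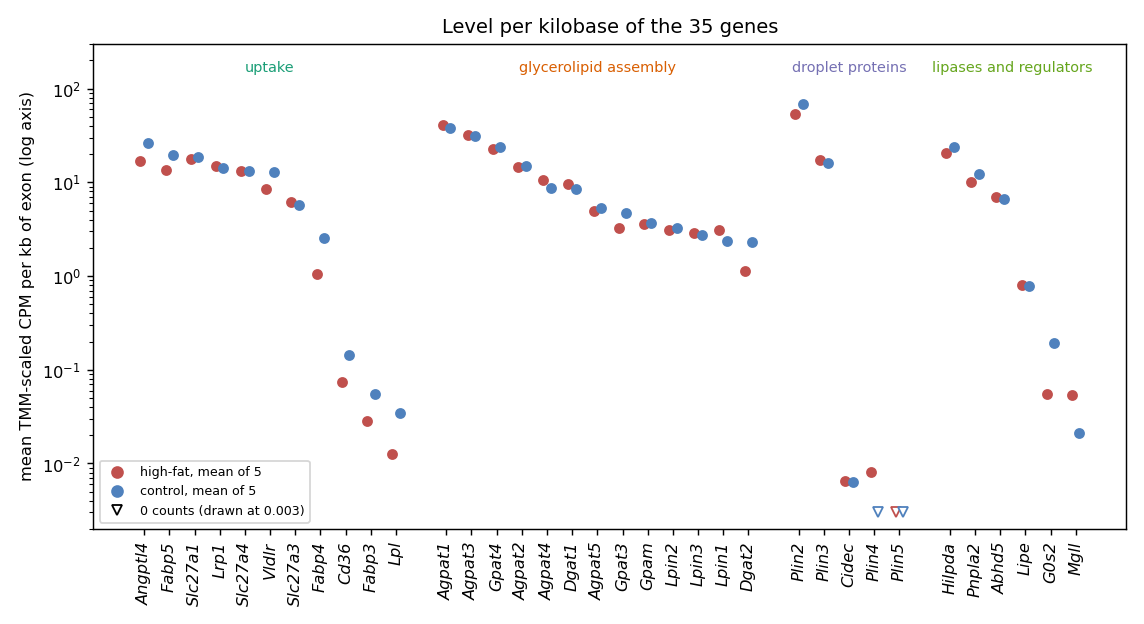
Mean TMM-scaled CPM per kilobase of exon (log y axis) of the 35 genes on the high-fat and control diets, mean of 5 mice each, by role. Plin2 is the highest member on both diets, at 54.1 in high-fat mice and 68.6 in control mice, while Cd36, Lpl, Fabp3, Cidec, Plin4, Plin5, Mgll and G0s2 lie far below the rest.

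Of the 5 droplet proteins 2 were tested, Plin2 with a negative change and Plin3 with a positive one, and 0 passed in edgeR, adjusted or not. Plin2, the droplet coat protein of most cells outside fat, was at 220, 172, 157, 173 and 228 CPM in high-fat mice 1 to 5, against 285, 327, 178, 161 and 253 CPM in control mice 1 to 5. Control mice 1, 2 and 5 were above every high-fat mouse, and control mice 3 and 4 lay among the high-fat mice. The log2 change was -0.34 ± 0.19 (SE) at an edgeR adjusted p of 0.52. Without control mice 3 and 4 it was -0.60 at 0.0456, the lowest of its alternatives, which ran to 0.946. Control mice 3 and 4 were thus low for Plin2 and for the hypoxia sum, and high for the macrophage markers. Abundant genes weigh most in the hypoxia sum. Ero1a was at 320 and 317 CPM in control mice 3 and 4, against 498, 457 and 515 CPM in control mice 1, 2 and 5. Bnip3 and Vegfa were also lowest in control mice 3 and 4, but Pdk1 was higher in both than in control mice 1 and 2. Car9 was higher in control mouse 3, at 40.1 CPM, than in control mice 1 and 2. Egln3 was higher in control mouse 4, at 138 CPM, than in control mice 1 and 2. Among controls, Ankrd37 was lowest in control mouse 1, at 11.4 CPM, and Ndrg1 in control mouse 3, at 243 CPM. Plin3, a coat protein that moves between cytosol and droplets, averaged 65.5 ± 6.00 CPM in high-fat mice and 61.1 ± 4.48 CPM in control mice (SD, n = 5 each). Plin2 was 75.5% ± 3.12 of the perilipin level per kilobase in high-fat mice and 80.1% ± 4.63 in control mice (SD, n = 5 each), with Plin3 nearly all of the rest. Plin4, a perilipin of fat and muscle, had 4 counts in high-fat mice and 0 in control mice, Cidec, which fuses droplets in adipocytes, had 1 count on each diet, and Plin5, the perilipin of oxidative tissue, had 0 counts, which over 10 libraries allows up to 0.0173 CPM. At such counts no fold is given.

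Among lipases and regulators, Pnpla2 and its inhibitor Hilpda had lower means on the high-fat diet, and the cofactor Abhd5 and the lipase Lipe were close to control levels. Of 6 members 4 were tested, 2 with a negative and 2 with a positive change, 1 lower at an unadjusted p under 0.05 and 0 passing the adjusted threshold in edgeR. The summed level per kilobase was 38.5 ± 3.54 in high-fat mice and 43.7 ± 3.32 in control mice (SD, n = 5 each).

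Pnpla2 (chr7:141455198-141460743, plus strand) encodes adipose triglyceride lipase, which starts lipolysis. It was at 31.2, 28.5, 30.8, 29.0 and 34.8 CPM in high-fat mice 1 to 5, against 40.3, 36.8, 34.3, 33.4 and 39.2 CPM in control mice 1 to 5. High-fat mice 1 to 4 were below all controls, and high-fat mouse 5 was above control mice 3 and 4. Its log2 change was small and even, -0.25 ± 0.08 (SE), at an edgeR adjusted p of 0.242, and -0.33 without control mice 3 and 4. Hilpda, a hypoxia-inducible inhibitor of this lipase, had the highest level per kilobase of the group. It was at 21.2, 23.2, 18.7, 22.7 and 27.2 CPM in high-fat mice 1 to 5, against 24.7, 26.6, 28.5, 22 and 30.1 CPM in control mice 1 to 5. The groups overlapped over most of their range, and the log2 change was -0.22 ± 0.11 (SE) at an edgeR adjusted p of 0.458. Abhd5, the activator of the same lipase, averaged 41.3 ± 2.24 CPM in high-fat mice and 39.3 ± 2.11 CPM in control mice (SD, n = 5 each). Lipe, hormone-sensitive lipase, averaged 4.73 ± 0.496 CPM in high-fat mice and 4.61 ± 0.849 CPM in control mice (SD, n = 5 each). Mgll, monoglyceride lipase, had 23 counts over the high-fat libraries and 10 over the control libraries, and G0s2, another inhibitor of adipose triglyceride lipase, had 4 in the high-fat and 15 in the control libraries, too few to test.

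The mice did not take equal parts in these differences. High-fat mouse 3 was the lowest of all 10 mice for 6 of the 7 lower members, and control mouse 5 was the highest for 4 of 7. Among high-fat mice, mouse 1 came closest to the controls for 4 of the 7 and mouse 5 for 3. The lowest control was mouse 4 for 3 of them, mouse 3 for 2 and mouse 2 for 2. In the high-fat group the coefficient of variation of the 27 tested members had a median of 13.7%, against 13.4% in the control group, and 10 of the 27 were under 10% on each diet.

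**Figure D4:**
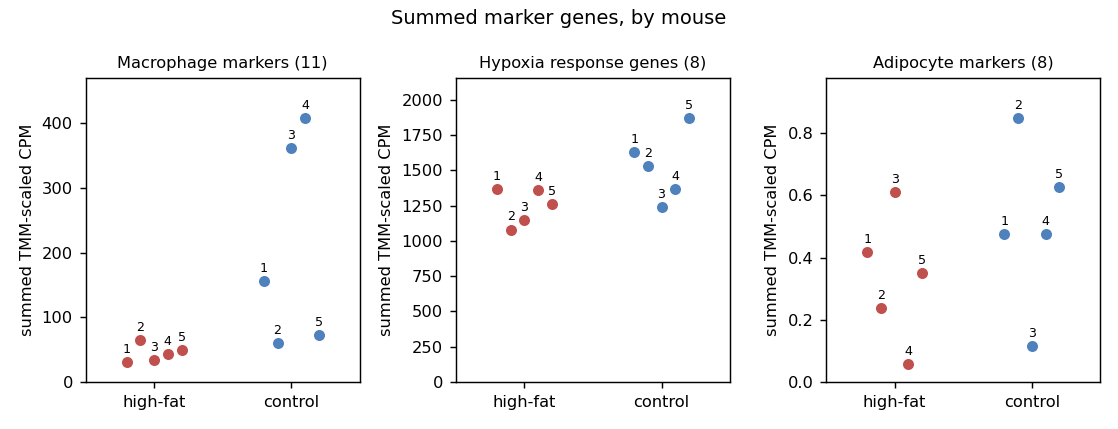
Summed TMM-scaled CPM (y axes, from 0) of 11 macrophage markers without Mertk, 8 hypoxia response genes and 8 adipocyte markers in each mouse. Macrophage sums reach 361 and 408 CPM in control mice 3 and 4 and stay at 30.2 to 64.3 CPM in high-fat mice, and adipocyte sums stay below 1 CPM in all 10.

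Beyond the 35 genes, 49 others of the same pathways were read, of which 25 were tested. None passed the adjusted threshold in edgeR, and 8 had an unadjusted p under 0.05, which is 32.0% of those tested against 12.1% of all genes. Because this list too was chosen with earlier results of these data known, its share is not independent support. Lower on the high-fat diet were 4, 16% against 6.62% of all genes. Ddhd2, a triglyceride and phospholipid lipase, was at 36.2 ± 3.04 CPM in high-fat mice and 45.2 ± 2.26 CPM in control mice (SD, n = 5 each), a log2 change of -0.32 at an edgeR adjusted p of 0.145. Lclat1, an acyltransferase of cardiolipin and phosphatidylinositol, was at 88.3 ± 5.39 CPM in high-fat mice and 103 ± 5.37 CPM in control mice (SD, n = 5 each). For Ddhd2 and Lclat1 every high-fat mouse was below every control, which is 8% of the related genes tested, against 1.1% of all genes. Lrp2, the receptor megalin, had a log2 change of -0.78, and Mboat2, a lysophospholipid acyltransferase, one of -0.25. DESeq2 passed Ddhd2, Lrp2 and Lclat1, with adjusted p-values of 0.00936, 0.0284 and 0.0444, which is 12% against 1.52% of all genes lower.

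Higher on the high-fat diet were 4 of these related genes, also 16%, against 5.45% of all genes. Lipg, endothelial lipase, was at 5.64 ± 1.51 CPM in high-fat mice and 3.32 ± 0.862 CPM in control mice (SD, n = 5 each), a log2 change of 0.76 at an edgeR adjusted p of 0.197. Scarb1, the receptor for high-density lipoprotein, was at 246 ± 24.9 CPM in high-fat mice and 209 ± 25.5 CPM in control mice (SD, n = 5 each). Lmf1, which matures lipoprotein and endothelial lipases, had a log2 change of 0.21, and Lpcat3, a lysophosphatidylcholine acyltransferase, one of 0.26. Among receptors for lipoproteins, Vldlr and Lrp2 were lower on the high-fat diet and Scarb1 was higher at an unadjusted p under 0.05, while Lrp1 and Lrp8 had log2 changes of 0.10 and 0.05. None passed the adjusted threshold in edgeR.

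**Figure D5:**
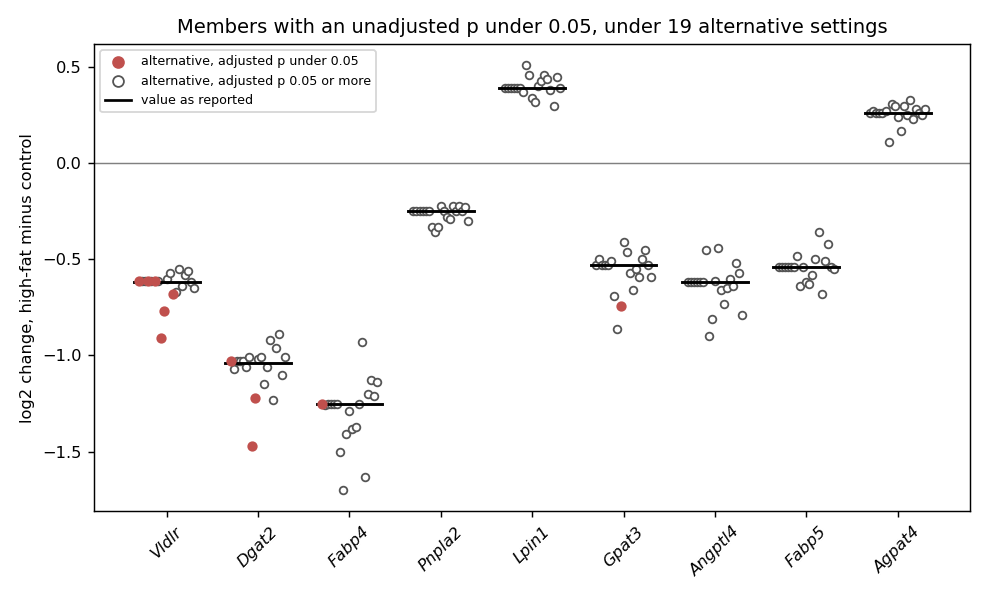
Log2 change (high-fat minus control, y axis) of the 9 members with an unadjusted p under 0.05 under 19 alternative settings, with the reported value as a line and settings with an adjusted p under 0.05 filled. No value crosses 0, and filled points appear for Vldlr, Dgat2, Fabp4 and Gpat3 only.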

How the data were processed

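Per the labels' protocols, RNA of the sorted MC38 cells was isolated with RNeasy columns, and polyadenylated RNA went into NEBNext Ultra libraries. The authors deposited raw read counts per gene as whole numbers in a table of 10 libraries. Named in the submitters' processing notes, without roles, are BWA 0.7.12, DESeq2 1.24.0, cutadapt 1.15 and FastQC 0.11.5, and the builds mm10 and GRCm38. How reads were counted, and whether by strand, is not given in the sources used here.

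Of 53379 gene identifiers, 53274 matched GENCODE M21 once versions were ignored. The 35 members, the other lists and the tests were chosen with earlier results of these data known. In R 4.3.3, the edgeR 4.0.16 quasi-likelihood test (robust, two-sided, high-fat minus control, filterByExpr and TMM) was run on 14337 genes holding 99.9% of counts, with Benjamini-Hochberg adjustment over all of them at 0.05. The script was tested on simulated counts. Alternatives were DESeq2 1.42.0, limma-voom (limma 3.58.1, no sample weights), other filters and size factors, 3 covariate fits and fits without libraries. Levels per kilobase divide CPM by the union of annotated exons. Members were given by mouse where the unadjusted p was under 0.05 or the level per kilobase was the highest of its role, and related genes were named at an unadjusted p under 0.05 and a mean of at least 1 CPM. Libraries differed by more than sampling noise in every pair (lowest chi-square per degree of freedom 8.26), so all 10 were kept. The labels number the mice but name no batch. For these 10 mice, p-values set the difference between diets against the spread between mice of the same diet. Limits from low counts cover counting error only.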

Additional observations from a re-analysis of the deposited data

Results flagged for a closer look

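Of 70 groups of 5 mice examined, 3 held a mouse whose gap to the nearest other mouse took up an unusually large share of the group's range, and chance flags about 1 in 20 groups. Fabp4 in high-fat mouse 1 was at 9.11 CPM, while the other high-fat mice lay between 2.99 and 4.26 CPM. The skeletal muscle marker sum in high-fat mouse 3, the mouse with the lowest values of most of the lower members, was 6.78 CPM, while the other high-fat mice lay between 2.01 and 3.22 CPM. The colon epithelium marker sum in control mouse 1 was 6.23 CPM, while the other control mice lay between 1.42 and 2.43 CPM.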

How the results depend on the processing

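Of 171 values of the 9 members with an unadjusted p under 0.05 under 19 alternatives, 0 changed sign and 11 moved past the adjusted threshold. All genes called numbered 9 in edgeR, 316 in DESeq2, 5 in limma-voom, 53 with no low-count filter, 16 with the replicate block, 0 with library size as a covariate, 192 with the macrophage covariate, 276 without control mice 3 and 4, and 1 to 27 with 1 mouse left out. Members called numbered 0 in edgeR, 3 in DESeq2, 1 (Vldlr, lower) with no filter (0.103% of all genes lower) and with the replicate block (0.0697%), 2 with the macrophage covariate, 4 without control mice 3 and 4, and 0 to 1 with 1 mouse left out (Vldlr without control mouse 3, adjusted p of 0.0468 in edgeR). Members at an unadjusted p under 0.05 numbered 5 with library size as a covariate and 8 to 10 with 1 mouse left out (29.6% to 37% of those tested, against 8.46% to 14.9% of all genes). Related genes called numbered 3 in DESeq2, which is 12% against 1.52% of all genes lower. Lrp2 alone was called with the macrophage covariate (4%, against 0.551% lower) and also without control mice 3 and 4 (4%, against 1.07%). The cause of these shifts was not tested. The mouse numbers did not pair the groups: correlations of same-numbered mice ran from -0.36 to 0.333, so the block is reported here alone. The median log2 change was -0.43 for uptake and -0.42 for droplet proteins with the macrophage covariate. For assembly it was 0.02 with library size, 0.10 with the macrophage covariate and 0.05 without control mice 3 and 4. With 1 mouse left out it was -0.34 to -0.23 for uptake, -0.03 to 0.05 for assembly and -0.19 to -0.06 for droplet proteins. Of 513 single values 20 changed sign, none of a called member and none beyond 0.21 in size: Lrp1 -0.21, Gpat4 0.01 and Agpat5 0.02 with library size, Gpam 0.11, Lpin2 0.10 and Plin3 -0.01 with the macrophage covariate, and Gpam 0.05 and Lpin2 0.02 without control mice 3 and 4. With 1 mouse left out, Slc27a4 ran from 0.00 to 0.05, Lrp1 from -0.09 to 0.29, Gpam from -0.08 to 0.05, Lpin2 from -0.08 to 0.03, Lpin3 from -0.06 to 0.14 and Lipe from -0.04 to 0.13. Summed levels per kilobase, averaged over 10 mice, depend on the length used: with the longest transcript in place of the exon union they were 128 against 103 for uptake, 203 against 151 for assembly, 131 against 78.1 for droplet proteins and 52.0 against 41.1 for lipases. Depth limits Cd36, Lpl, Fabp3, Mgll, G0s2, Plin4, Plin5 and Cidec.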
